A study of Mus musculus with 24 samples.

Results

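Wild-type (WT) mouse embryonic stem cells (ESCs) were followed in embryoid bodies (EBs), aggregates in which ESCs differentiate into several lineages, and RNA levels on day 7 were compared with those on day 3. The means compared are those of the 8 of 24 arrays that the labels give as WT on day 3 or day 7, while the spread behind SEs and p-values was estimated on all 24 arrays. Each day had 4 arrays, 2 of the line J1 and 2 of the line V6.5, and day 7 was set against day 3 within each line. J1 is an inbred line and V6.5 comes from a cross of strains, so each is 1 line standing for its strain. The 4 WT arrays of undifferentiated cells (day 0, 2 of each line) are given beside the results as a starting level. The 8 arrays of Eed knockout (KO) cells on days 3 and 7, 2 per day of the lines E14 and J1, enter 1 comparison near the end. The protein EED belongs to PRC2, a Polycomb complex that places methyl marks on histone H3 at silent genes, and the KO cells came from another laboratory.

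All cells had been expanded with LIF, a cytokine that keeps ESCs undifferentiated, on mouse embryonic fibroblasts (MEFs) inactivated with mitomycin C. Hanging drops without LIF were then seeded with cells depleted of MEFs, and the EBs were later moved to suspension culture. RNA came from whole EBs, so fewer cells of a type and less RNA per cell cannot be told apart. The labels do not say whether the 2 arrays of a line and day came from separate cultures. The p-values below therefore reflect only how far these samples differ from each other, and that spread may be technical. The labels name the cell type of every sample as embryonic stem cells, whatever its day. The mean level of the core pluripotency list was 10.66 to 10.94 on the WT arrays of day 0, 10.13 to 10.66 on day 3 and at most 8.65 on day 7, so the arrays of day 7 stood apart from an ESC profile.

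ESCs correspond to the epiblast of the early embryo. When LIF is withdrawn they lose the naive transcription factor network, pass through a primed state like that of the epiblast after implantation, and then form germ layers. Mesoderm arises from a primitive streak-like state marked by T-box and homeobox factors, and in EBs it yields heart precursors, endothelium and a wave of primitive red cells that resemble those of the yolk sac. Extraembryonic endoderm, the layer that covers an EB, makes serum proteins and transport proteins. Ectoderm becomes neural tissue unless signals such as BMP divert it.

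Values are log2 expression per gene, and a difference of 1 is a 2-fold change. Differences were tested with limma over 19938 genes. A gene is said to have risen or fallen where the Benjamini-Hochberg adjusted p was under 0.05 and the change at least 2-fold, and all adjusted p-values of genes are from limma. A standard error (SE) is that of the fit. The gene lists are described by counts and medians with no test of the list.

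Across genes, arrays of the same line and day had correlations of 0.9899 or more in 11 of the 12 groups of the series. The exception was WT J1 on day 7, with a correlation of 0.9619. Its arrays were 2-fold or more apart in 1256 genes (6.3%), where the other pairs had 21 to 163 such genes. Array 1 was the higher in 416 of them and array 2 in 840. The contrast had a tissue pattern, seen in genes that were picked for this gap after their values were seen. Otx2, a homeobox gene of the anterior neural plate, read 11.58 on array 1 and 6.82 on array 2, and Pax6, a neural and eye regulator, read 10.02 and 6.09. The chemokine Ccl3, made by macrophages, read 7.57 and 12.81, and Pf4, a platelet chemokine, 5.57 and 11.11. Over whole lists, array 1 exceeded array 2 by a mean of 1.12 for neuroectoderm and neurons, and was below it by a mean of 2.16 for myeloid and megakaryocyte genes, 1.67 for yolk sac and liver genes, 1.30 for endothelial genes and 1.23 for globins and red cell genes. Each gene list below is therefore also given without array 1 or without array 2 where its count of rises or of falls moves by more than 1.5 times. Those counts were chosen after seeing the data.

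**Figure D1:**
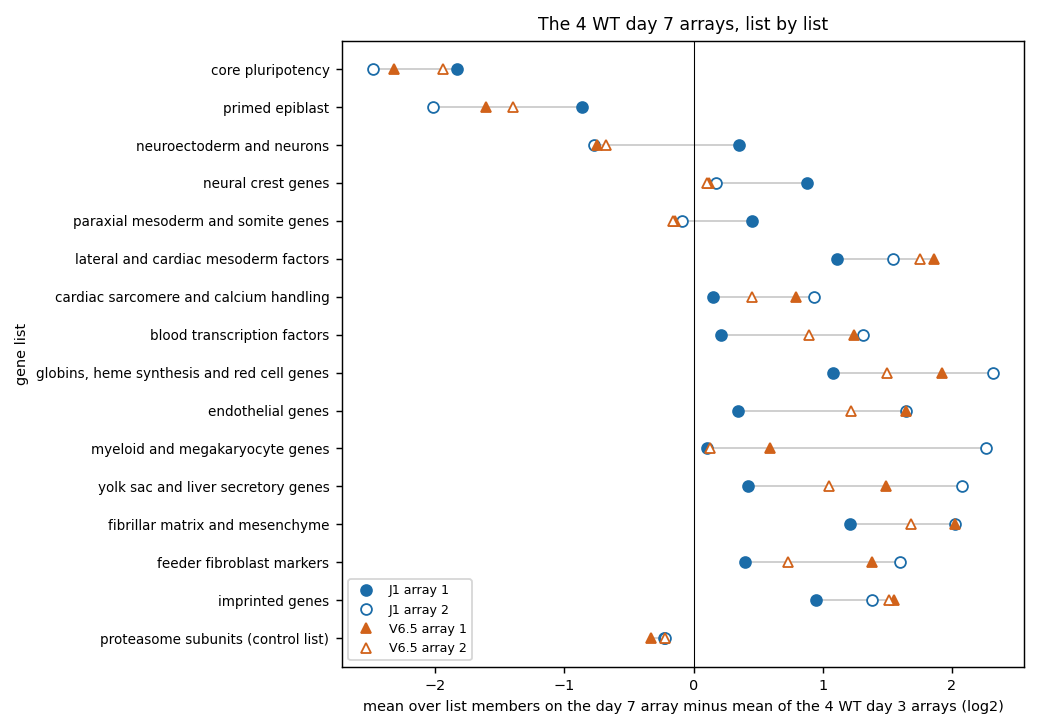
For each of 16 gene lists, the mean level over its members on each WT day 7 array minus the mean of the 4 WT day 3 arrays (log2). Filled and open circles are the 2 J1 arrays and triangles the 2 V6.5 arrays; J1 array 1 stands at 0.35 for neuroectoderm and neurons, where the other 3 arrays lie between -0.77 and -0.68, and at 0.42 for yolk sac and liver secretory genes, where they lie between 1.05 and 2.08.

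Sequences are shown here for 2 gene sets on which results below turn: the microRNAs of the miR-302 cluster, which includes miR-367, and their relatives on the X chromosome, whose genes fell, and the promoters of red cell genes, which rose. MicroRNAs pair with target messages through bases 2 to 8, the seed, which is in capitals below. The sequences are those of RefSeq on GRCm38.p6, written 5′ to 3′.
miR-302b-3p: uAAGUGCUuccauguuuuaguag
miR-302d-3p: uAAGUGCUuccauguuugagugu
miR-302c-3p: aAGUGCUUccauguuucagugg
miR-367-3p: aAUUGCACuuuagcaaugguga
miR-363-3p: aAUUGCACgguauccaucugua
miR-20b-5p: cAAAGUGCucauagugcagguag
The miR-302b-3p and miR-302d-3p entries share the seed AAGUGCU. The miR-302c-3p entry starts 1 base later in this table, so that its bases 2 to 8 read AGUGCUU, the same run shifted by 1 base. The seed of miR-20b-5p, AAAGUGC, overlaps them. The seed AUUGCAC is common to miR-367-3p, from the cluster on chromosome 3, and miR-363-3p, from the X chromosome. For Mir302a the table holds the 5p arm. The mature miR-302b-3p lies at chr3:127545275-127545297 and miR-367-3p at chr3:127545779-127545800, both on the plus strand. The array's probe sets for these genes detect RNA of the gene or hairpin, not the mature microRNA.

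For the red cell genes, the 250 bases before the annotated start are given on the strand of the gene, with matches to the GATA motif in capitals. The motif was searched on both strands as the letters GATA with A or T before them and A or G after them. GATA1, a zinc finger factor required for red cells, binds such sequences. The regions are chr7:103853208-103853457 (minus strand) for Hbb-y, an embryonic beta-like globin, chr11:32276350-32276599 (plus strand) for Hba-x, the embryonic alpha-like globin zeta, and chrX:150547167-150547416 (plus strand) for Alas2, the enzyme that starts heme synthesis in red cells.
Hbb-y promoter: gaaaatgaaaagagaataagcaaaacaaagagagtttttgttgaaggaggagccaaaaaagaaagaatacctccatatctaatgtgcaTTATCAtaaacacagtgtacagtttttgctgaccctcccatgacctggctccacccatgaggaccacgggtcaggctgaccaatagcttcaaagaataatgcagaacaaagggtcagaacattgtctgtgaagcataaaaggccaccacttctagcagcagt
Hba-x promoter: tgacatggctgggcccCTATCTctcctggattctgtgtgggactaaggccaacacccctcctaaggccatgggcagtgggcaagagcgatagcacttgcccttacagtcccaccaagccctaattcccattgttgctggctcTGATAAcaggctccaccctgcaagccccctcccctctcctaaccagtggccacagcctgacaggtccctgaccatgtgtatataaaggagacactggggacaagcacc
Alas2 promoter: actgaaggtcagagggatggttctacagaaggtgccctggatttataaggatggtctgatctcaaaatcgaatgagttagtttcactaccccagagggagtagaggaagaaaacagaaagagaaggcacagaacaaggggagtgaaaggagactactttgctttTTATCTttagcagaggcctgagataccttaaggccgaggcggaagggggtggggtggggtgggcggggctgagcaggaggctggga
The Hbb-y promoter holds 1 match, which starts 162 bases before the gene's start, Hba-x holds 2, at 234 and 108 bases, and Alas2 holds 1, at 86 bases. Of the 32851 promoters in the RefSeq table, 26.5% hold at least 1 match in a window of the same length, so a match describes the sequence and marks no site. A TATA-type element (TATAAA or ATAAAA) begins 28 bases before the start in both globin genes.

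From day 3 to day 7, 754 of 19938 genes rose (3.78%) and 489 fell (2.45%), together 1243 (6.23%), and the median change over all genes was -0.04. Of the genes that rose, 662 had all 4 day 7 arrays above all 4 day 3 arrays, and 443 of those that fell had all 4 below. Over all genes, 10.0% had 4 day 7 arrays above every day 3 array and 11.5% had them below. In 491 of the genes that rose and 316 of those that fell the change was at least 2-fold in each line taken alone. Changes of 8-fold or more were found for 50 genes that rose and 21 that fell, and of 16-fold or more for 16 and 2. The J1 and V6.5 changes, which share no array, correlated at 0.84 across the 19938 genes, which are not independent replicates. The SD of the changes over genes was 0.52 in J1 and 0.64 in V6.5. Only Slc6a14, an amino acid transporter gene, was called with opposite signs in the lines.

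The largest rises included 3 embryonic globins, genes of vessels and mesenchyme, and the endoderm genes Spink1 and Ttr, which are described with their lists. The embryonic beta-like globin Hbb-bh1 read 5.37 and 6.30 on the J1 arrays of day 3 and 5.22 and 4.85 on the V6.5 arrays. On day 7 the same lines read 12.37 and 13.29, and 13.07 and 12.85, and the lowest day 7 array was far above the highest day 3 array. Its log2 change was 7.46 (SE 0.25, adjusted p = 6.5e-15), 6.99 in J1 and 7.93 in V6.5. Nrp1, a receptor for semaphorins and VEGF, rose by 5.70 (SE 0.31, adjusted p = 1.7e-11) and Igf2, an imprinted fetal growth factor, by 4.64 (SE 0.23, adjusted p = 2.6e-12). Capn6 (4.54), a calpain family member without protease activity, Pdgfra (4.07), a receptor of mesenchymal cells, and Pmp22 (4.04), a membrane protein gene known from myelin, also rose, with day 7 arrays between 9.97 and 10.69, 10.02 and 11.36, and 12.25 and 12.88, in that order.

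Among the largest falls were genes of the ESC state. Slc27a2, a fatty acid transporter and acyl-CoA synthetase gene, fell by 4.32 on the log2 scale (SE 0.16, adjusted p = 1.5e-14), from between 9.79 and 10.95 on day 3 to between 5.65 and 6.49 on day 7. Slc7a3, a cationic amino acid transporter gene, fell by 3.98 (SE 0.20, adjusted p = 2.4e-12), and Pim2, a kinase gene, by 3.59. Trh, which encodes thyrotropin-releasing hormone (-3.51), the calcitonin receptor gene Calcr (-3.39) and the ectonucleotidase gene Enpp3 (-3.31) fell too. Calcr had been higher on day 3 (9.80 to 10.36) than its day 0 mean of 7.53. In each of these genes every day 7 array was below every day 3 array. On day 7 Trh read 10.56 on J1 array 1, above the V6.5 arrays at 8.57 and 9.45, and was lowest on J1 array 2.

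**Figure D2:**
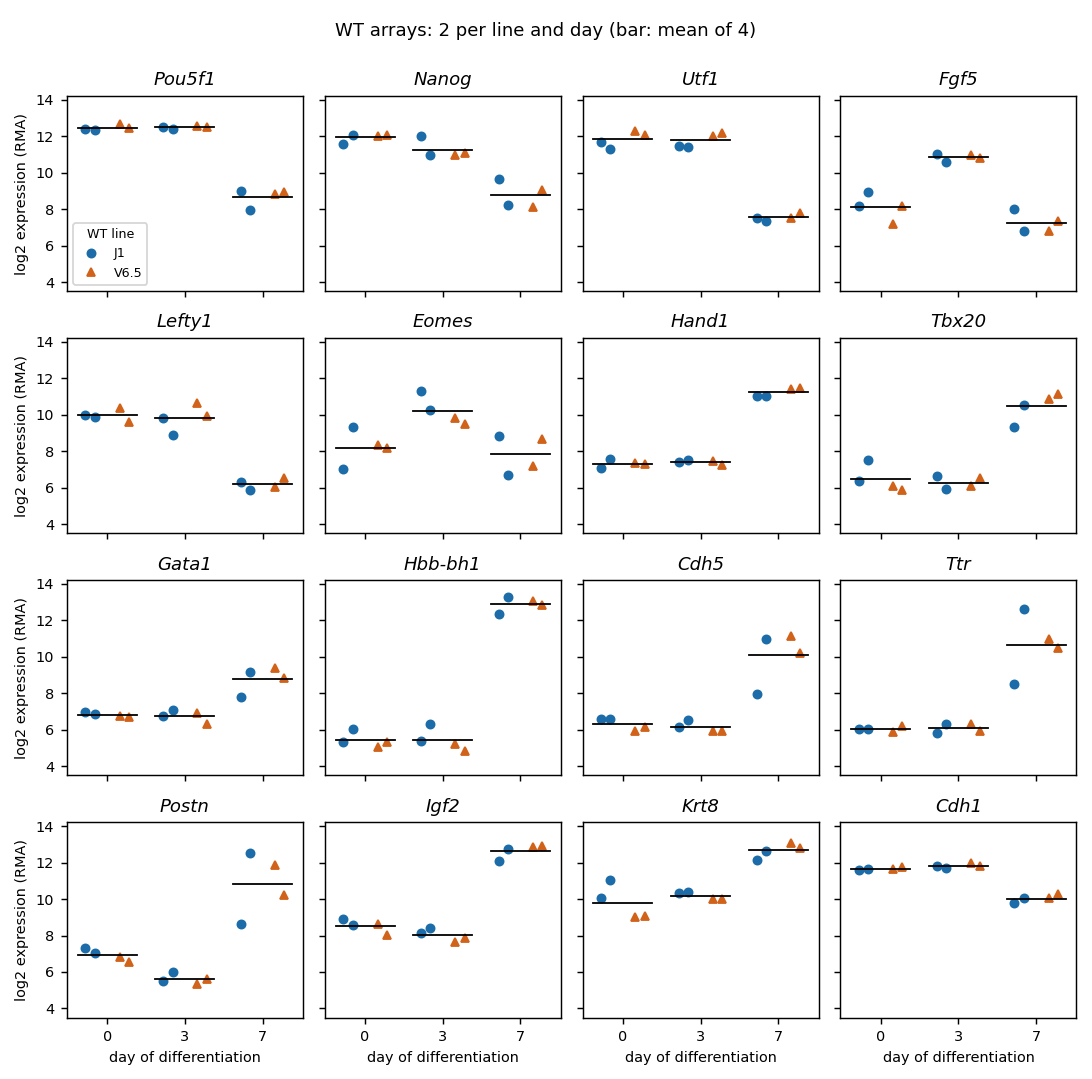
Log2 expression of 16 genes on each WT array by day of differentiation, with J1 as circles, V6.5 as triangles and the mean of 4 arrays as a bar. Pou5f1 stays between 12.39 and 12.56 on day 3 and lies between 7.95 and 8.98 on day 7, while Hbb-bh1 goes from at most 6.30 to at least 12.37.

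Core pluripotency genes fell from day 3 to day 7. Of 23 measured genes in this list, 19 fell and none rose, with a median change of -2.01. The 4 others, Sall4, Lin28a, Lin28b and Trim71, changed by between -0.78 and -0.37 and were not called. Pou5f1, which encodes the factor OCT4, read 12.48 and 12.39 on the J1 arrays and 12.56 and 12.50 on the V6.5 arrays of day 3. On day 7 it read 8.98 and 7.95 for J1 and 8.85 and 8.94 for V6.5, a change of -3.80 (SE 0.15, adjusted p = 3.7e-14). Its mean was 12.46 on day 0 and 12.48 on day 3.

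Nanog, a homeobox factor of the same network, fell by 2.48 (SE 0.25, adjusted p = 1.5e-07), and on day 7 it still read 9.67 and 8.22 for J1 and 8.14 and 9.05 for V6.5. Sox2, the partner of OCT4 and a gene of neural progenitors as well, fell by 2.48 too (SE 0.36, adjusted p = 1.2e-05). Its day 3 arrays all lay between 11.50 and 11.53, whereas its day 7 arrays spread from 7.97 to 10.84, with J1 array 1 the highest. Utf1, a chromatin factor gene of undifferentiated cells, had the largest fall of the list (-4.23, SE 0.17, adjusted p = 1.0e-13), with day 7 arrays at 7.35 to 7.81. Dppa2, a regulator of the early embryo's genes, fell by 3.44 (SE 0.19, adjusted p = 2.1e-11), and another probe set of the gene gave -3.40. RefSeq has Dppa2 on chromosome 16, but the 20 probe sets nearest in ID number to the one used belong to genes of chromosome 19, so what it detects is uncertain.

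Fewer of the naive pluripotency genes, which mark the state kept by LIF, were called. Of 20 measured, 8 fell and 2 rose, with a median of -0.77. The nuclear receptor gene Nr0b1 fell by 3.48 (SE 0.35, adjusted p = 1.2e-07). Its day 3 values, 9.54 and 7.67 for J1 and 10.57 and 10.97 for V6.5, were all below its day 0 mean of 11.83, and its day 7 values ran from 5.80 to 6.91. Zfp42, the REX1 gene, fell by 1.69 (SE 0.36, adjusted p = 7.8e-04). Its day 3 and day 7 ranges overlapped, since J1 array 2 of day 3 read 6.04 and the day 7 arrays 5.40 to 6.28. The orphan receptor gene Esrrb read 8.81 and 7.01 for J1 and 9.38 and 9.58 for V6.5 on day 3 and 6.76 to 7.16 on day 7 (change -1.76, SE 0.29, adjusted p = 5.6e-05).

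Dppa5a fell by 2.50 and Fgf4, the growth factor that drives ESCs out of the naive state, by 1.99, both with no overlap between the days. In V6.5 alone 12 of the 20 naive genes fell, with a median of -1.49, and in J1 alone 4, with a median of -0.25. The members that rose were Tbx3 (1.74, SE 0.16, adjusted p = 3.4e-08), a T-box gene also used in the heart and limb, and Tet2 (1.24, SE 0.19, adjusted p = 2.1e-05), an enzyme that oxidises methylated cytosine. Klf4 was at 7.95 to 8.57 on day 3 and 7.89 to 8.98 on day 7 and was not called.

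Genes of the primed epiblast, of which Fgf5 and Dnmt3b stood above their day 0 level on day 3, fell. Of 19 measured, 10 fell and 1 rose, with a median of -1.50. Fgf5, the classical marker of the epiblast after implantation, read 11.05 and 10.57 for J1 and 10.99 and 10.81 for V6.5 on day 3, above its day 0 mean of 8.13. On day 7 it read 8.01, 6.81, 6.80 and 7.35, a change of -3.61 (SE 0.30, adjusted p = 8.3e-09) to below the day 0 mean. Dnmt3b, a de novo DNA methyltransferase, followed the same course, with 11.92 to 12.21 on day 3, a day 0 mean of 10.74 and a change of -2.99 (SE 0.21, adjusted p = 6.2e-10). Zic5 fell by 3.25 (SE 0.37, adjusted p = 7.4e-07), but another probe set of the gene gave -1.05. Of the 20 probe sets nearest in ID number to the one used, 19 belong to genes of chromosome 11 and none to chromosome 14, where RefSeq has Zic5, so the size of its fall is uncertain. The member that rose was Nkd1 (1.05), a feedback inhibitor of Wnt signalling.

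Otx2 fell as well (-2.90, SE 0.55, adjusted p = 2.7e-04), although its days overlapped: the day 3 arrays read 11.44 to 11.75, J1 array 1 of day 7 read 11.58, and the other 3 day 7 arrays 6.82, 7.97 and 8.47. Array 1 of J1 thus held the day 3 level of this gene. Of 11 measured DNA methylation and TET genes, Dnmt3b and Dnmt3l, its catalytically inactive partner (-2.55, SE 0.26, adjusted p = 1.7e-07), fell and Tet2 rose, while the maintenance enzyme Dnmt1 was not called (0.11).

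All 5 measured genes of the cluster of Mir302 genes and Mir367 fell, with a median of -2.54. Of the 300 microRNA genes with a probe set 11 fell, a count that includes these 5. On day 0 the mean of the 5 was 4.13 and 7.17 for J1 and 4.13 and 4.65 for V6.5. It was 6.49 to 7.80 on the day 3 arrays and 4.07 to 5.47 on those of day 7. All day 0 arrays but J1 array 2 thus lay within the day 7 range. Mir302a read 8.09 and 9.11 for J1 and 6.69 and 7.54 for V6.5 on day 3, and 6.18, 3.97, 4.46 and 5.56 on day 7 (change -2.82, SE 0.53, adjusted p = 2.8e-04). Mir302b (-2.33), Mir302c (-2.73), Mir302d (-2.54) and Mir367 (-1.95) had no overlap between the days either, and their probe sets may not be independent, since the cluster is made as 1 transcript. The 2 J1 arrays of day 7 lay apart here too: array 1 was at least 2-fold above array 2 in 4 of the 5. Mir363 (-2.78, SE 0.43, adjusted p = 2.7e-05) and Mir20b (-1.28, SE 0.20, adjusted p = 4.1e-05), neighbours on the X chromosome, also fell. The genes of miR-367-3p and miR-363-3p, shown above with the seed AUUGCAC, were thus both lower on day 7. In the list of 16 lineage microRNA genes, Mir145a (2.35, SE 0.29, adjusted p = 2.2e-06) and Mir143 (1.29, SE 0.19, adjusted p = 1.5e-05), a pair known from smooth muscle and heart, rose. Mir363 and Mir20b were the falls of this list, and its other members were not called (median 0.01).

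The germline and meiosis list had 24 measured genes, of which 5 fell and none rose (median -0.26). These were Tdrd12 (-2.36, SE 0.20, adjusted p = 1.4e-08) and Mael (-1.48), of the piRNA pathway, the RNA helicase gene Ddx4 (-2.34, SE 0.14, adjusted p = 7.4e-11), Sycp3 (-2.23), of the meiotic chromosome axis, and Rnf17, a germ cell gene. Ddx4 read 7.36 to 8.25 on day 3 and 5.37 to 5.81 on day 7, with no overlap.

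Genes of Nodal signalling, which maintains the epiblast and induces the streak, fell among the ligands, the coreceptor and the inhibitors. Of 12 measured genes 6 fell and none rose, with a median of -0.77. The ligand gene Nodal read 8.85 to 9.73 on day 3 and 7.17 to 7.59 on day 7 (change -2.05, SE 0.19, adjusted p = 5.0e-08). The ligand Gdf3 fell by 2.67 and the coreceptor gene Tdgf1, or Cripto, by 3.21 (SE 0.28, adjusted p = 1.4e-08). The feedback inhibitors Lefty1 and Lefty2 fell by 3.63 (SE 0.35, adjusted p = 5.7e-08) and 2.64 (SE 0.27, adjusted p = 1.3e-07). Every day 7 array lay below every day 3 array in these 5 genes.

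Primitive streak genes showed no common direction, with 3 rises and 3 falls among 27 measured and a median of -0.02. Eomes, a T-box factor of the streak, was above its day 0 level on day 3, at 11.31 and 10.24 for J1 and 9.85 and 9.47 for V6.5 against a day 0 mean of 8.21. It read 8.86 and 6.72 for J1 and 7.18 and 8.65 for V6.5 on day 7 (change -2.37, SE 0.44, adjusted p = 2.3e-04). Mixl1, a homeobox gene of the streak, read 11.33 and 9.06 for J1 but 7.49 and 7.51 for V6.5 on day 3, and 7.04 to 8.59 on day 7. Its change was -2.38 in J1 and 0.36 in V6.5, and neither the mean (-1.01, adjusted p = 0.16) nor the difference between lines (adjusted p = 0.37) was called. Mesp1, a gene of nascent cardiac mesoderm, read 8.05 on J1 array 1 of day 7 and between 5.87 and 7.10 on the other 7 arrays, and was not called. Brachyury was not analysed here.

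The members of the streak list that rose were the apelin receptor gene Aplnr (3.47, SE 0.39, adjusted p = 5.7e-07), Amot (1.91), a regulator of Hippo signalling, and Cdx2 (1.58), a homeobox gene of the posterior embryo and trophoblast. Aplnr read 6.47 to 7.40 on day 3 and 9.53 to 10.99 on day 7.

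Transcription factors of lateral and cardiac mesoderm rose. Of 24 measured, 15 rose and 1 fell, with a median of 1.31. Hand1, a basic helix-loop-helix factor of lateral mesoderm and trophoblast, read 7.42 and 7.52 for J1 and 7.49 and 7.23 for V6.5 on day 3, and 11.02, 11.03, 11.40 and 11.49 on day 7. The 4 arrays of each day lay close together, far from those of the other day, and the change was 3.82 (SE 0.12, adjusted p = 3.0e-15). Tbx20, a T-box factor of the heart, rose by 4.19 (SE 0.33, adjusted p = 3.7e-09), from 5.91 to 6.62 on day 3 to 9.31 to 11.16 on day 7. Foxf1, a forkhead factor of splanchnic mesoderm, rose by 4.10 (SE 0.27, adjusted p = 3.2e-10), and another probe set of it gave 5.50.

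Gata6, a zinc finger factor of cardiac mesoderm and endoderm, read 8.87 and 7.41 for J1 and 7.02 and 7.34 for V6.5 on day 3 and 10.34 to 11.66 on day 7 (change 3.53, SE 0.31, adjusted p = 1.9e-08). Its relative Gata4 rose by 1.82 (SE 0.21, adjusted p = 7.4e-07). Hand2, Mef2c, Isl1, Msx1, Smarcd3, Gata5, Tbx5 and Foxf2 completed the rises together with Bmp4 and Msx2, which are described with BMP signalling. The heart factor gene Nkx2-5 was not called (0.07), and Wt1, a gene of the epicardium and kidney, fell (-1.17, SE 0.21, adjusted p = 1.5e-04).

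Of the genes of the heart's contractile apparatus some rose. Of 26 measured, 6 rose and none fell, with a median of 0.37. They were Myl4 (2.69, SE 0.44, adjusted p = 5.6e-05), Tnni1 (2.25, SE 0.35, adjusted p = 3.0e-05), Tnnc1 (1.58), Tnnt2 (1.50), Tpm1 and Actc1, which encode a myosin light chain, troponin subunits, tropomyosin and cardiac actin. Tnnt2 read 7.11 to 7.73 on day 3. On day 7 J1 array 1, at 7.51, lay inside that range, and the other 3 arrays, with 9.67 the highest, lay above it. The atrial myosin gene Myh6 was not called (-0.11).

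Red cell genes held the largest changes of all genes. Of 22 measured globin, heme and red cell genes, 10 rose and 1 fell, with a median of 0.90. Hbb-y read 5.33 to 5.99 on day 3 and 11.74 to 13.14 on day 7 (change 6.75, SE 0.24, adjusted p = 7.3e-15). Hba-x read 6.56, 7.09, 6.75 and 6.52 on day 3 and 11.87, 13.23, 12.72 and 12.36 on day 7 (change 5.82, SE 0.21, adjusted p = 8.8e-15). With Hbb-bh1 these are the 3 embryonic globins measured. The changes in J1 and V6.5 were 6.78 and 6.73 for Hbb-y and 5.72 and 5.91 for Hba-x, closer than the 6.99 and 7.93 of Hbb-bh1. Signal shared between such close paralogs was not tested, and adult globin genes were not analysed here.

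Alas2, whose promoter is shown above, rose by 3.45 (SE 0.37, adjusted p = 2.8e-07), from 5.87 to 6.29 on day 3 to 7.96 and 11.11 for J1 and 10.01 and 9.17 for V6.5. The other rises were Rhag, Epb42 and Slc4a1, of the red cell membrane, the mitochondrial iron importer gene Slc25a37, Trim10 and Ppox, a later enzyme of heme synthesis. Rhd, a blood group gene, fell (-1.24, SE 0.18, adjusted p = 1.5e-05). Of the transcription factors of blood, 10 of 20 rose and 2 fell, with a median of 0.97.

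Gata1, whose product binds the motif marked in the promoters above, read 6.76 and 7.10 for J1 and 6.93 and 6.33 for V6.5 on day 3 and 7.78, 9.16, 9.37 and 8.87 on day 7 (change 2.02, SE 0.22, adjusted p = 4.7e-07). Its cofactor gene Zfpm1, or FOG1, rose by 2.55 (SE 0.23, adjusted p = 2.2e-08), Runx1, needed for definitive blood, by 2.45 (SE 0.26, adjusted p = 3.0e-07) and Fli1, an ETS factor of megakaryocytes and endothelium, by 2.13 (SE 0.35, adjusted p = 6.8e-05). J1 array 1 was the lowest of the day 7 arrays in all 4 of these genes, yet above every day 3 array. Lmo2, Nfe2, Klf1, Gfi1b, Ikzf1 and Gata2 also rose. Myb (-1.62) and Bcl11a (-1.23), which act in definitive blood cells, fell without overlap between the days. Tal1, an early regulator of blood, was not called (0.63).

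Endothelial genes rose in 14 of 28 measured and fell in none, with a median of 1.03. Kdr, the VEGF receptor gene of blood vessel and blood precursors, read 6.67 and 6.80 for J1 and 5.84 and 5.82 for V6.5 on day 3 and 8.87, 9.99, 10.38 and 10.32 on day 7 (change 3.61, SE 0.38, adjusted p = 1.9e-07). Cdh5, which encodes VE-cadherin of endothelial junctions, rose by 3.94 (SE 0.53, adjusted p = 5.5e-06), with 7.95 on J1 array 1 and 10.24 to 11.17 on the other 3 day 7 arrays. Emcn, a sialomucin of capillaries and veins, spread most, from 5.88 on J1 array 1 to 10.28 on J1 array 2, with 7.76 and 7.71 in V6.5 (change 2.86, SE 0.70, adjusted p = 3.0e-03). The angiopoietin receptor gene Tek rose by 2.45 (SE 0.51, adjusted p = 6.6e-04), but J1 array 1, at 6.89, lay inside its day 3 range of 6.25 to 7.04. Tie1, Pecam1, Esam, Ets1, Cd34, Erg, Flt1, Sox17, Egfl7 and Icam2 made up the other 10. In Cd34, Erg, Egfl7 and Icam2 too, J1 array 1 of day 7 did not exceed the highest day 3 array. It read 7.85, 6.59, 8.86 and 6.75, in that order. From the J1 arrays alone 6 genes were called, and from the V6.5 arrays alone 17.

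Myeloid and megakaryocyte genes stood out on J1 array 2 of day 7. Of 20 measured, 6 rose and none fell, with a median of 0.70. Without J1 array 1 of day 7 the count was 9, and without array 2 it was 3, with a median of 0.13. Pf4 read 4.88 to 5.24 on day 3 and 5.57 and 11.11 for J1 and 6.30 and 5.17 for V6.5 on day 7 (change 1.99, SE 0.69, adjusted p = 0.031). The lower V6.5 array lay inside the day 3 range. Without J1 array 2 of day 7 its change was 0.64 (adjusted p = 4.9e-03), under the 2-fold minimum, and Laptm5 and Tyrobp, with 0.69 and 0.50, were not called either. In a fit of the 8 WT arrays alone, none of these 3 was called. The mannose receptor gene Mrc1 (1.66) and the leukocyte membrane gene Laptm5 (1.45) rose, as did Itga2b (1.46, SE 0.27, adjusted p = 1.9e-04), the integrin of early blood progenitors and platelets, Tyrobp and Kit. Ptprc, the pan-leukocyte gene, was at 7.30 on J1 array 2 and at 5.56 to 5.91 on the other 7 arrays, and was not called.

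Secretory genes of endoderm rose. Of 28 measured yolk sac and liver genes, 14 rose and none fell, with a median of 0.92. Without J1 array 2 of day 7, 10 rose and the median was 0.50, and Apom (0.92), Fgb (0.72) and Apoa1 (0.65) were not called. Ttr, the thyroxine carrier secreted by visceral endoderm, read 5.81 to 6.31 on day 3 and 8.54 and 12.61 for J1 and 10.97 and 10.50 for V6.5 on day 7 (change 4.56, SE 0.67, adjusted p = 1.6e-05). Spink1, a secreted trypsin inhibitor, rose by 4.97 (SE 0.69, adjusted p = 8.9e-06), with 7.28 and 11.85 for J1 and 10.94 and 10.77 for V6.5. Tdo2, the enzyme that opens the tryptophan ring, rose by 3.69 (SE 0.38, adjusted p = 2.0e-07) and Ctsh, a lysosomal protease, by 2.94 (SE 0.48, adjusted p = 5.4e-05). In all 4 genes J1 array 1 was the lowest of the day 7 arrays but still above day 3.

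Rbp4, Apob, Dpp4, Cpn1, Dab2, Apom, Fgb, Cubn, Mttp and Apoa1 were the other rises, whereas Afp (0.53) and Amn (-0.21), genes of visceral endoderm, were not called. In Apob and Dpp4 J1 array 1 of day 7, at 6.37 and 6.93, lay inside the day 3 range. In Apoa1 both J1 array 1 and V6.5 array 2 of day 7, at 7.62 and 7.56, lay inside it. For Dab2 (1.70) another probe set, with a day 3 mean of 4.13 and a day 7 mean of 4.04, gave -0.09. With the mean of its probe sets Dab2 changed by 0.81 and was not called. Afp reached 8.44 on J1 array 2 and stayed between 5.83 and 6.26 on the other 7 arrays. Of 18 endoderm transcription factors measured, 6 rose and none fell (median 0.47). They included Gata6, Gata4, Sox17 (1.37, SE 0.19, adjusted p = 6.2e-06) and Cdx2, most of which other lists hold as well, as well as Nr2f2 and Foxa1. Foxa2 was not called (0.16). Its change was -0.49 in J1 and 0.82 in V6.5 and differed between the lines (adjusted p = 0.038). Without J1 array 2 of day 7, Nr5a2, a nuclear receptor gene, fell (-1.15 against -0.83).

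Basement membrane and parietal endoderm genes rose in 8 of 18 and fell in 1 (median 0.99). Nid1, which links laminin to collagen IV, rose by 2.06 (SE 0.25, adjusted p = 1.8e-06), Plat, the tissue plasminogen activator, by 1.97 (SE 0.16, adjusted p = 4.8e-09), Dkk1, a Wnt inhibitor, by 2.08 (SE 0.30, adjusted p = 1.4e-05) and the coactivator gene Cited1 by 1.61 (SE 0.29, adjusted p = 1.7e-04). All 4 had no overlap between the days. Fst, which encodes the activin inhibitor follistatin, fell by 1.67 (SE 0.40, adjusted p = 2.3e-03), with an overlap between the days from J1 array 1, at 9.79 on day 7.

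Mesenchymal and fibrillar matrix genes rose in 20 of 29 measured, with a median of 1.58, the highest of the 36 lists. In this list Thy1 alone fell (-1.16, SE 0.22, adjusted p = 2.5e-04). Postn, which encodes periostin of embryonic connective tissue and heart cushions, read 5.36 to 6.01 on day 3 and 8.64 and 12.53 for J1 and 11.88 and 10.20 for V6.5 on day 7 (change 5.19, SE 0.64, adjusted p = 1.7e-06). The transition factor gene Snai2 rose by 3.99 (SE 0.29, adjusted p = 9.2e-10), and Zeb1, Zeb2 and Twist2, of the same function, also rose. Cdh11, a cadherin of mesenchyme, rose by 3.75 (SE 0.43, adjusted p = 6.8e-07) and the proteoglycan gene Lum by 3.72 (SE 0.63, adjusted p = 7.9e-05). The collagen gene Col1a1 rose by 1.97 (SE 0.25, adjusted p = 3.2e-06).

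MEF feeders express many of the same genes. A list of 19 measured feeder fibroblast markers, which shares 8 genes with the matrix list, had 9 rises and 1 fall (median 0.59). Its mean level ran from 7.18 to 7.49 on the 4 WT arrays of day 0, 6.47 to 6.75 on day 3 and 7.00 to 8.20 on day 7. Thbs1, a thrombospondin gene, rose by 2.29 (SE 0.31, adjusted p = 6.1e-06), while Thy1 fell and the other 9 were not called. The part of feeder cells in the rise of matrix genes was not tested.

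In smooth muscle genes, 2 of 13 rose and 1 fell. Acta2, smooth muscle actin, rose by 4.83 (SE 0.44, adjusted p = 2.9e-08), from 6.63 to 7.17 on day 3 to 10.17 and 12.08 for J1 and 12.63 and 12.25 for V6.5. Cald1 rose by 1.57 and Cnn1, which encodes calponin, fell by 1.53 (SE 0.20, adjusted p = 4.3e-06), while Myh11, the most specific of these genes, was not called (-0.10). Epithelial genes went both ways, with 3 rises and 7 falls among 19 measured and a median of -0.68. E-cadherin, encoded by Cdh1, read 11.71 to 11.97 on day 3 and 9.78 to 10.27 on day 7 (change -1.80, SE 0.10, adjusted p = 3.4e-11). Epcam (-1.88), the splicing factor gene Esrp1 (-1.92), Ap1m2 (-1.87), Grhl2, Cldn7 and St14 also fell. The 3 members that rose were the keratins of simple epithelia, Krt8 (2.49, SE 0.36, adjusted p = 1.1e-05), Krt19 (2.28, SE 0.39, adjusted p = 8.5e-05) and Krt18 (1.90, SE 0.30, adjusted p = 3.9e-05). Krt8 ranged from 12.15 to 13.09 on day 7.

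**Figure D3:**
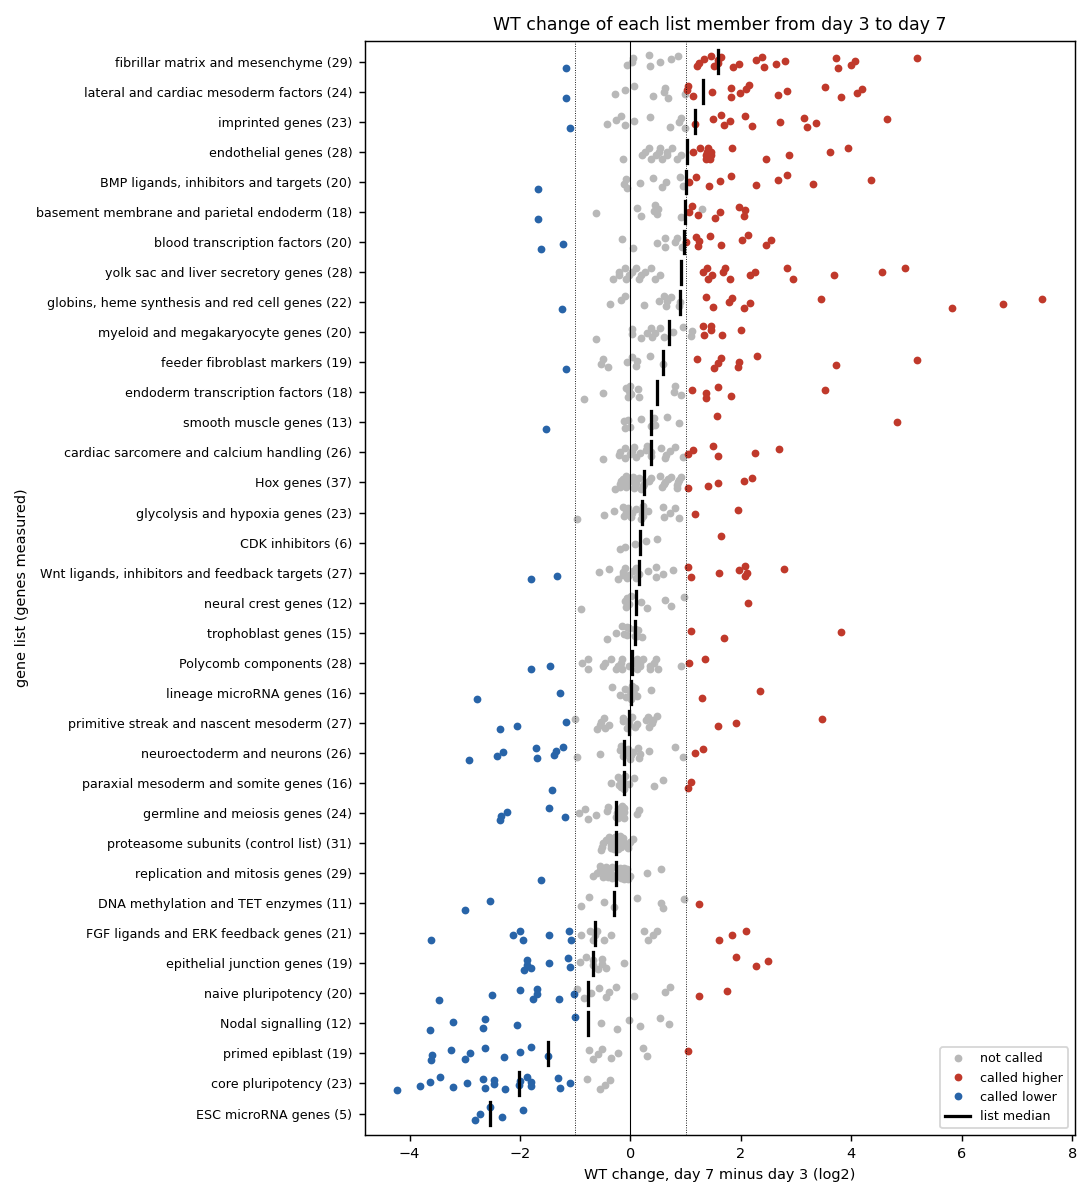
WT log2 change from day 3 to day 7 of every measured member of 36 gene lists, with the list median as a bar and called members in colour. The fibrillar matrix list has the highest median (1.58) and the ESC microRNA list the lowest (-2.54), and no member of the proteasome control list was called.

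Neural genes fell more than they rose. Of 26 neuroectoderm and neuron genes, 8 fell and 2 rose, with a median of -0.11. The neurofilament-type gene Ina fell by 2.92 (SE 0.32, adjusted p = 4.0e-07), Nefl by 2.41 (SE 0.26, adjusted p = 2.9e-07), the proneural factor gene Neurod1 by 2.31 (SE 0.32, adjusted p = 9.6e-06) and Stmn2, a regulator of microtubules, by 1.72 (SE 0.25, adjusted p = 1.5e-05). Their day 0 means were 10.74 for Ina, 9.89 for Nefl, 7.09 for Neurod1 and 11.68 for Stmn2. Irx3 (1.32, SE 0.14, adjusted p = 2.2e-07) and Crabp1 (1.17, SE 0.19, adjusted p = 7.2e-05) rose. The means of Crabp1 were 11.16 on day 0, 9.94 on day 3 and 11.11 on day 7. Without J1 array 1 of day 7 its change was 0.97, under the 2-fold minimum. Progenitor genes separated the J1 arrays: Pax6 read 10.02 on array 1 of day 7 and 6.09 to 7.49 on the other 7 arrays of the comparison. Without array 1 of J1 the list had 1 rise and 9 falls, and without array 2 it had 4 and 8.

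Of 12 neural crest genes 1 rose, the endothelin receptor gene Ednrb (2.14, SE 0.24, adjusted p = 5.0e-07), which endothelium expresses too, and Sox10 was not called (-0.05). Without J1 array 2 of day 7, 2 rose. Of 16 paraxial mesoderm genes, Foxc2 (1.09) and the retinoic acid hydroxylase gene Cyp26a1 (1.04, SE 0.38, adjusted p = 0.042) rose and Tcf15 (-1.42, SE 0.13, adjusted p = 4.8e-08) fell. Without J1 array 1 of day 7 neither rise was called, and Cyp26a1 was also not called without 5 of the other arrays. Hox genes rose in 5 of 37 (median 0.25), namely Hoxb2 (2.21, SE 0.22, adjusted p = 8.2e-08), Hoxc8 (2.05, SE 0.26, adjusted p = 2.3e-06), Hoxc6 (1.58), Hoxd8 (1.41) and Hoxd4. Hoxb2 was higher in V6.5, at 9.76 and 9.78 on day 7, than in J1, at 8.31 and 8.19. Without J1 array 1 of day 7 the count of Hox genes was 8.

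Imprinted genes, many of which control fetal growth, rose in 12 of 23 measured and fell in 1, with a median of 1.17. Igf2 read 8.13 and 8.39 for J1 and 7.64 and 7.89 for V6.5 on day 3, and 12.11, 12.75, 12.85 and 12.90 on day 7. Dlk1, a Notch-related ligand, rose by 3.35 (SE 0.25, adjusted p = 2.0e-09), the zinc finger genes Zim1 by 3.20 (SE 0.31, adjusted p = 6.9e-08) and Plagl1 by 3.14 (SE 0.36, adjusted p = 7.4e-07), and Cdkn1c, which encodes the cell cycle inhibitor p57, by 1.64 (SE 0.28, adjusted p = 7.5e-05). Peg3, Mest, Sgce, Igf2r, Peg10, Phlda2 and Slc38a4 completed the rises, and Magel2 fell (-1.10). Without J1 array 2 of day 7 Magel2 changed by -0.95, under the 2-fold minimum, and no imprinted gene fell. The list holds genes expressed from either parental allele, and the array does not separate alleles. The maternally expressed Meg3 changed by 0.71 and was not called. Of 15 trophoblast genes, Hand1, Peg10 (1.70, SE 0.17, adjusted p = 8.4e-08) and Plet1 (1.09) rose, and the other 12 were not called.

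In BMP signalling, which promotes mesoderm and blood, ligands and targets rose. Of 20 measured genes, 10 rose and 1 fell, with a median of 1.01. Among ligands, Bmp5 had a mean of 6.16 (SD 0.31, n = 4) on day 3 and read 9.48 and 10.60 for J1 and 11.11 and 10.86 for V6.5 on day 7 (change 4.36, SE 0.28, adjusted p = 2.1e-10). Bmp2 rose by 3.31 (SE 0.27, adjusted p = 6.8e-09) and Bmp4 by 2.84 (SE 0.23, adjusted p = 4.6e-09). Among targets, Msx2 rose by 2.66 (SE 0.19, adjusted p = 7.9e-10), and Msx1, Smad6, Bambi, Id2 and Id3 rose too.

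Wnt genes rose in 8 of 27 and fell in 2, with a median of 0.16. The ligand gene Wnt5a rose by 2.77 (SE 0.22, adjusted p = 3.6e-09), the secreted inhibitor genes Frzb by 2.11 (SE 0.33, adjusted p = 3.6e-05) and Dkk1 as above, and the agonist gene Rspo3 by 2.07 (SE 0.28, adjusted p = 5.5e-06). Wnt8a (-1.81, SE 0.34, adjusted p = 2.8e-04), a ligand of the streak stage, and Sfrp2 (-1.32, SE 0.26, adjusted p = 3.8e-04) fell, and the general feedback target Axin2 was not called (0.09). FGF genes fell in 7 of 21 and rose in 3 (median -0.64). Besides the ligands Fgf5 and Fgf4, the feedback targets Etv5 (-2.12, SE 0.13, adjusted p = 8.8e-11), for which another probe set gave -2.23 and the one used lies in ID number among those of chromosome 10 and not 16, the gene's own, and Spry4 (-1.95, SE 0.19, adjusted p = 7.6e-08) fell, with Spry2, Etv4 and Il17rd. The mesenchymal ligand Fgf10 (2.08, SE 0.16, adjusted p = 2.4e-09) and the receptors Fgfr2 (1.84, SE 0.16, adjusted p = 2.3e-08) and Fgfr3 (1.61, SE 0.18, adjusted p = 5.7e-07) rose.

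Polycomb components changed little as a list, with 2 rises and 2 falls among 28 measured and a median of 0.02. Eed read 9.60 and 9.91 for J1 and 10.25 and 10.36 for V6.5 on day 3 and 9.56, 9.41, 9.37 and 9.79 on day 7, a change of -0.49 (SE 0.19, adjusted p = 0.05) that was not called. Within PRC1, the other Polycomb complex, Phc1 (-1.79, SE 0.14, adjusted p = 3.7e-09) and Cbx7 (-1.46, SE 0.14, adjusted p = 7.8e-08), the subunits typical of ESCs, fell, whereas Cbx8 (1.05, SE 0.13, adjusted p = 2.1e-06) and Pcgf5 (1.35, SE 0.21, adjusted p = 2.5e-05) rose. Ezh2 and Suz12, of PRC2, were not called. Without J1 array 1 of day 7 the Polycomb list had 4 falls, and without array 2 it had 1 rise. Of 6 CDK inhibitors Cdkn1c alone rose, and of 29 replication and mitosis genes Ccne1, cyclin E, alone fell (-1.62, SE 0.14, adjusted p = 1.4e-08; list median -0.27). Of 23 glycolysis and hypoxia genes, Vegfa (1.96, SE 0.19, adjusted p = 6.2e-08), the ligand of KDR, and Ndrg1 (1.16) rose. None of 31 proteasome subunit genes, a control list, was called, with a median of -0.26 and its largest changes in Psma7 (-0.52) and Psmc5 (-0.51).

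The change differed between the lines for 49 of 19938 genes (0.246%). The V6.5 minus the J1 change was positive for 43 of them and negative for 6. Of the 49 genes, 29 were also called in the comparison of days. This test rests on 2 arrays per line and day, and the unequal J1 pair weighs on it: without J1 array 1 of day 7 the count was 333 and without array 2 it was 729. Cd59a, a complement inhibitor gene, read 9.78 and 10.55 for J1 and 7.68 and 8.12 for V6.5 on day 3, and 8.86, 10.01, 10.44 and 10.19 on day 7. The J1 arrays lay above the V6.5 arrays on day 3, and the lines overlapped on day 7. The V6.5 change exceeded the J1 change by 3.15 (adjusted p = 1.5e-03). Hapln1, a link protein of the hyaluronan matrix, rose in both lines, to 7.72 and 8.61 for J1 and 11.07 and 10.58 for V6.5 (difference 3.07, adjusted p = 4.5e-04). Cdh11 differed by 2.97 (adjusted p = 8.4e-03), with day 3 levels of 9.59 and 9.03 for J1 and 6.49 and 6.72 for V6.5 and 11.49 to 11.96 on day 7.

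Klhl4 differed by 2.63 (adjusted p = 0.045). In the opposite direction, Slc6a14 fell in V6.5 from 6.92 and 7.32 to 4.68 and 5.21 and stayed between 5.03 and 5.18 in J1 (difference -2.21, adjusted p = 2.1e-03). Vmn2r-ps104, annotated as a receptor pseudogene (-1.58), the phospholipase gene Plce1 (-1.38) and the vitamin C transporter gene Slc23a1 (-1.38) were the next, each higher in V6.5 than in J1 on day 3. Foxf1, Hoxb2, Hoxc8, Sox17 and Msx1, which rose as described above, also had a larger change in V6.5. For Foxf1 the difference was 1.90 (adjusted p = 1.3e-03), with 10.15 and 10.50 for J1 and 12.13 and 12.28 for V6.5 on day 7.

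**Figure D4:**
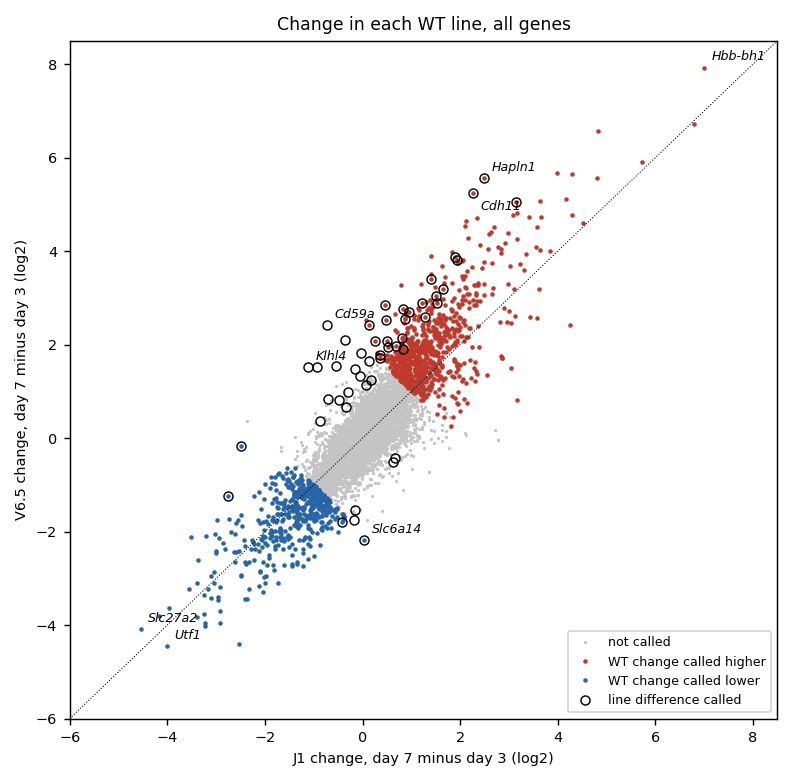
Log2 change from day 3 to day 7 in J1 (x) against V6.5 (y) for 19938 genes, with genes called in the comparison of days in colour, genes whose change differed between lines ringed and equal changes on the dotted line. The changes correlate at 0.84, and of the 49 ringed genes 43 lie above the line.

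The WT change was finally set beside that of the Eed KO cells, whose 8 arrays of days 3 and 7 are separate from the WT arrays. In KO cells 400 genes (2.01%) were called between the days. The change differed between genotypes for 537 genes (2.69%), being higher in KO for 292 (1.46%) and lower for 245 (1.23%). Of the 754 genes that rose in WT, 221 had a lower change in KO, and of the 489 that fell, 203 had a higher one. Those genes were picked by their WT change, which is also part of the difference, so the choice itself favours these directions. Without J1 array 1 of day 7 the count of genes that differed between genotypes was 876, and with the arrays of a line and day averaged 353. The genotypes also differ in 1 of their lines, E14 or V6.5, and line and genotype cannot be told apart there. Since the KO cells came from another laboratory, genotype and origin of the cells cannot be told apart in J1 either.

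Several pluripotency genes had a smaller fall in KO cells. Pou5f1 changed by -0.56 in KO and -3.80 in WT, a difference of 3.25 (adjusted p = 1.6e-09), and the differences were 2.78 for Nanog (adjusted p = 4.8e-05), 2.27 for Sox2 (adjusted p = 7.8e-03) and 1.85 for Zfp42 (adjusted p = 0.03). Dppa2 (3.57), Utf1 (3.45) and Nr0b1 (3.40) had the largest positive differences together with Serpinb9e (3.54), a serpin gene that was not called in WT (0.29) and rose in KO by 3.82. Of the 23 core pluripotency genes, 17 had a higher change in KO and none a lower one. The change was lower in KO for 11 of 22 globin, heme and red cell genes, 12 of 24 lateral and cardiac mesoderm factors and 9 of 20 blood transcription factors. It was lower for 2 of 28 endothelial genes, 2 of 28 yolk sac and liver genes and none of 18 basement membrane genes. The share over all genes was 1.23%. In these 3 lists the median changes in KO and WT were 0.26 and 1.03, 0.38 and 0.92, and 0.69 and 0.99, in that order. Dlk1 rose by 3.33 in KO and 3.35 in WT. Hbb-bh1 changed by 0.14 in KO against 7.46 in WT (difference -7.32, adjusted p = 1.9e-11), Hbb-y by 0.07, Hba-x by 0.27 and Tbx20 by -0.70. The difference was -2.04 for Gata1 (adjusted p = 3.3e-04) and -2.83 for Kdr (adjusted p = 2.0e-03). For Fgf5, Eomes and Cdkn1c it was 1.30, 1.73 and -0.72 and was not called (adjusted p = 0.074, 0.11 and 0.33), and the KO changes were -2.31, -0.63 and 0.92.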

How the data were processed

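RNA of 24 samples was measured on Affymetrix Mouse Gene 1.0 ST arrays, 1 sample per array. The deposited values are log2 expression per probe set, made with Affymetrix Power Tools by RMA per the submitters' processing notes; for versions and genome build the sources used here give nothing. The table holds 35556 probe sets, from 2.08 to 14.42. GEO's platform annotation lists 23410, of which 21789 name 1 gene symbol and 1621 several; 12146 are not listed and none of these or of the several-symbol probe sets was used. Symbols were updated through RefSeq (GRCm38.p6) for 21698 probe sets, which gave 19938 genes. For the 999 genes with more than 1 probe set, the one with the highest mean was used. No filter on low values was applied. RMA as usually run gives all arrays like distributions, so a shift common to most genes may not be seen. The number of arrays limits the precision.

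limma 3.58.1 (R 4.3.3) was fitted to the 24 arrays with each genotype and line as a fixed effect and day effects per genotype (16 residual degrees of freedom), and p-values were adjusted by Benjamini-Hochberg over 19938 genes. The difference between lines was tested in a fit of means per line, genotype and day (12 residual degrees of freedom for the spread between arrays). The KO and WT changes were compared by an interaction term. The fit was tested on simulated data first. Alternatives covered normalization, filters, blocks, probe set choice, single lines and leaving out each array. The members and the gene lists were chosen with earlier results of these data known. Genes were named by a fixed rule (the largest changes that agree between lines, up to 4 called members of each list in each direction, 15 marker genes, and the 4 largest differences each way between lines and between genotypes); the other names in the text were added after their values were seen.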

Additional observations from a re-analysis of the deposited data

Results flagged for a closer look

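In 264 named genes the 4 WT arrays of day 3 and the 4 of day 7 were each searched for an array far from the other 3, which gave 28 such arrays in 528 groups of values. Chance gives about 1 in 20. On day 7 of J1, array 1 was far below the others for Ctsh (7.12), Erg (6.59), Gata2 (7.18) and Hoxd8 (6.54) and far above them for Mesp1 (8.05) and Pax6 (10.02). Array 2 of the same pair was far above the others for Afp (8.44) and Ptprc (7.30) and far below them for Pou5f1 (7.95) and Trim71 (9.45). On day 7 of V6.5, array 1 was the low one for Dppa2 (7.36) and Zfp42 (5.40).

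On day 3, array 2 of J1 was far above the others for Bcl11a (8.92), Isl1 (6.99), Mir367 (6.39), Nkx2-5 (8.11) and Thy1 (8.55) and far below them for Rhd (7.37), St14 (9.81) and Trh (12.19). Array 1 of J1 was high for Cpn1 (6.77), Nanog (12.002) and Spry2 (10.34) and low for Smarcd3 (6.59). Array 1 of V6.5 was low for Esam (5.92) and Zim1 (6.02), and array 2 for Runx1 (6.99) and Zfpm1 (7.61).

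J1 and V6.5 differed in how far expression moved from day 3 to day 7 in Cd59a, Hapln1, Cdh11 and Klhl4, where the V6.5 minus the J1 change was 3.15, 3.07, 2.97 and 2.63, and in Slc6a14 (-2.21), Vmn2r-ps104 (-1.58), Plce1 (-1.38) and Slc23a1 (-1.38).

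The change differed between KO and WT in Pou5f1 (KO minus WT 3.25), Nanog (2.78), Sox2 (2.27), Zfp42 (1.85), Dppa2 (3.57), Serpinb9e (3.54), Utf1 (3.45) and Nr0b1 (3.40). It was lower in KO for Hbb-bh1 (-7.32), Hbb-y (-6.68), Hba-x (-5.55), Tbx20 (-4.88), Kdr (-2.83) and Gata1 (-2.04).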

How the results depend on the processing

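The counts of genes that rose or fell stayed within 1.5 times of 754 and 489 under every alternative run except a test with no fold minimum, which gave 2939 and 3266. J1 alone gave 543 and 408, V6.5 alone 931 and 616, and leaving out 1 array 664 to 945 and 461 to 606. Median centring shifted the split to 699 and 564. The array numbers do not pair the samples by any label, and deviations of same-numbered groups correlated between -0.397 and 0.272. With the replicate number as a block, 753 genes rose and 489 fell, 63 differed between lines and 527 between genotypes. The count for the lines ran from 19 to 729 when 1 array was left out, with 333 and 729 without arrays 1 and 2 of J1 day 7, and 31 and 19 without arrays 1 and 2 of V6.5 day 3. The count for the genotypes ran from 440 to 876, and was 353 with the arrays of a line and day averaged. The cause of these shifts was not tested.

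Of 234 called genes named in the text, 168 were called under every alternative and 66 were not under at least 1, of which 48 in J1 alone and 18 in V6.5 alone. Fitted on the 8 WT arrays of the comparison alone, 703 genes rose and 479 fell, and 12 named genes were not called: Actc1, Apoa1, Apob, Apom, Cd34, Cldn7, Fgb, Icam2, Laptm5, Pf4, Slc6a14 and Tyrobp. Leaving out 1 array ended the call of 33 genes, 5 to 18 per array, most of which lie near the 2-fold minimum. In J1 alone the sign turned for Cd59a (-0.73), Klhl4 (-1.11), Foxa2 (-0.49), Nkx2-5 (-0.075), Axin2 (-0.065) and Slc6a14 (0.037), the last of which is called in the comparison of days. In V6.5 alone it turned for Afp (-0.054), Klf4 (-0.12), Mixl1 (0.36), Myh6 (0.036), Pax6 (-0.67) and Ptprc (-0.12). With 1 array left out, genes that were not called changed sign within these ranges: Afp -0.043 to 0.79, Axin2 -0.12 to 0.34, Klf4 -0.23 to 0.31, Klhl4 -0.20 to 0.68, Mesp1 -0.064 to 0.61, Myh6 -0.20 to 0.053, Pax6 -0.75 to 0.73, Ptprc -0.094 to 0.48 and Sox10 -0.22 to 0.090.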

Other observations

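Further gene families were looked at after the values were seen, and are given as values with no test of the family. All 6 measured Gata genes rose, with a median of 1.67, but Gata2 (1.01) lay at the 2-fold minimum and was under it in 8 of 21 alternatives, and Gata5 in 2. The others included Gata3 (1.53, SE 0.19, limma adjusted p = 2.5e-06). Some genes of axon guidance, which also steer vessels and mesenchyme, rose, but most members of these families were not called. Over all genes, 3.78% rose and 2.45% fell. Of 16 Slit, Robo, netrin and Unc5 genes, 4 rose and none fell (median 0.18). The netrin receptor gene Unc5c read 5.90 to 6.30 on day 3 and 9.66 to 10.39 on day 7 (change 3.83). Slit2 (3.47), its receptor gene Robo2 (2.27) and Slit3 (1.06) were the others. Of 31 semaphorins, plexins and neuropilins, 8 rose and 3 fell (median 0.08), and the rises included Nrp1 (5.70), Plxna2 (2.42) and Nrp2 (2.18). Of 21 ephrins and Eph receptors, 4 rose and 2 fell (median 0.21).

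The Meis and Pbx family, whose members are cofactors of Hox proteins, had 3 rises among 8. They were Meis2 (3.40), Pknox2 (3.14) and Meis1 (3.01), larger than the change of any Hox gene named above. Meis2 read 10.38 to 10.60 on the 4 arrays of day 7 and 6.52 to 7.59 on those of day 3. Of 7 IGF binding protein genes, Igfbp5 (3.64) and Igfbp4 (2.57) rose beside Igf2. Of 34 protocadherins 10 rose, of which Pcdh7 rose by 2.73, and 1 fell. Most of the rises were genes of the Pcdhb group, and signal shared between such paralogs was not tested. Of 44 collagens 4 rose and of 48 keratins 3, the keratins being those named above, so in both families most members were not called.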
